A study of Rattus norvegicus with 12 samples.

Results

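The genes followed here mark the swelling and reactivity of astrocytes in the brains of rats with bile duct ligation: Gfap, Aqp4, Kcnj10, Vim, Osmr, S100b, Aldh1l1, Gja1, Slc4a4 and Serpina3n. They were chosen by symbol, and all 10 of 10 had a row among the 17337 rows of the deposited count table. RNA had been sequenced from brains of male Sprague-Dawley rats of postnatal day 60, in 4 groups of 3, and the design text calls the tissue middle brain. The AAV-VEGFC rats had a bile duct ligation (BDL) of 4 weeks and an adeno-associated virus (AAV) that carried VEGFC, which makes lymphatic vessels grow. The AAV-GFP rats had the same ligation and a virus coding for green fluorescent protein. Both viruses were injected into the cisterna magna, the fluid space behind the cerebellum, in 20 µl at 1.5e+11 genome copies per rat, read from a label in which the exponent is not raised. The BDL rats had the ligation and no virus, and the sham rats served as controls. The labels name no promoter for either virus and no injection for the rats without one, so virus and injection cannot be told apart. They tie no library to a litter, a cage or a sequencing batch.

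Ligation of the bile duct blocks bile outflow and leads to cirrhosis, and it serves as a model of hepatic encephalopathy, the brain dysfunction of liver failure. Astrocytes are the cells of the brain that bind ammonia into glutamine, and their swelling is a known feature of that state. Water crosses their end-feet through aquaporin 4 (Aqp4), potassium is taken up through the channel Kir4.1 (Kcnj10), bicarbonate enters with sodium through Slc4a4, and connexin 43 (Gja1) couples the cells to each other. In many injuries astrocytes become reactive: they build up the intermediate filaments Gfap and Vim, carry more of the oncostatin M receptor (Osmr) and secrete the protease inhibitor Serpina3n.

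No member passed in the 4 comparisons between single groups, at an adjusted p under 0.05 in edgeR's quasi-likelihood test, with Benjamini-Hochberg adjustment over 12850 genes. In BDL against sham 0 of 9 tested members passed, where 0.109% of all genes did, with 2 members at an unadjusted p under 0.05 (5.90% of all genes), 1 passing by DESeq2 and 1 by limma voom. In AAV-GFP against BDL 0 of 9 passed, where 6.19% of all genes did, with 1 at an unadjusted p under 0.05 (20.7% of all genes), 1 passing by DESeq2 and 4 by limma voom. In AAV-VEGFC against AAV-GFP 0 of 9 passed, where 0.00778% of all genes did, and 0 had an unadjusted p under 0.05 (4.37% of all genes did) or passed by DESeq2 or limma voom. In AAV-VEGFC against BDL 0 of 9 passed, where 9.93% of all genes did, with 2 at an unadjusted p under 0.05 (29.2% of all genes), 0 passing by DESeq2 and 1 by limma voom. Over all 12850 genes and in the order above, DESeq2 called 108, 1485, 10 and 2347. In the same order limma voom called 347, 4687, 1 and 2488. The remaining member, Serpina3n, had too few reads to be tested. A further comparison, the mean of the 3 ligated groups against sham, was added after the members' values had been seen: Kcnj10 fell and Osmr and Vim rose, 3 of 9 tested members where 10% of all genes passed. Of all genes 3.02% rose and 7.00% fell in it, and 27.6% had an unadjusted p under 0.05, as 4 of the 9 members did. Of its 9 ligated libraries 6 also carry a virus, so ligation and virus are mixed in it. These comparisons share libraries: the BDL group stands in 4 of the 5 and the sham group in 2.

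**Figure D1:**
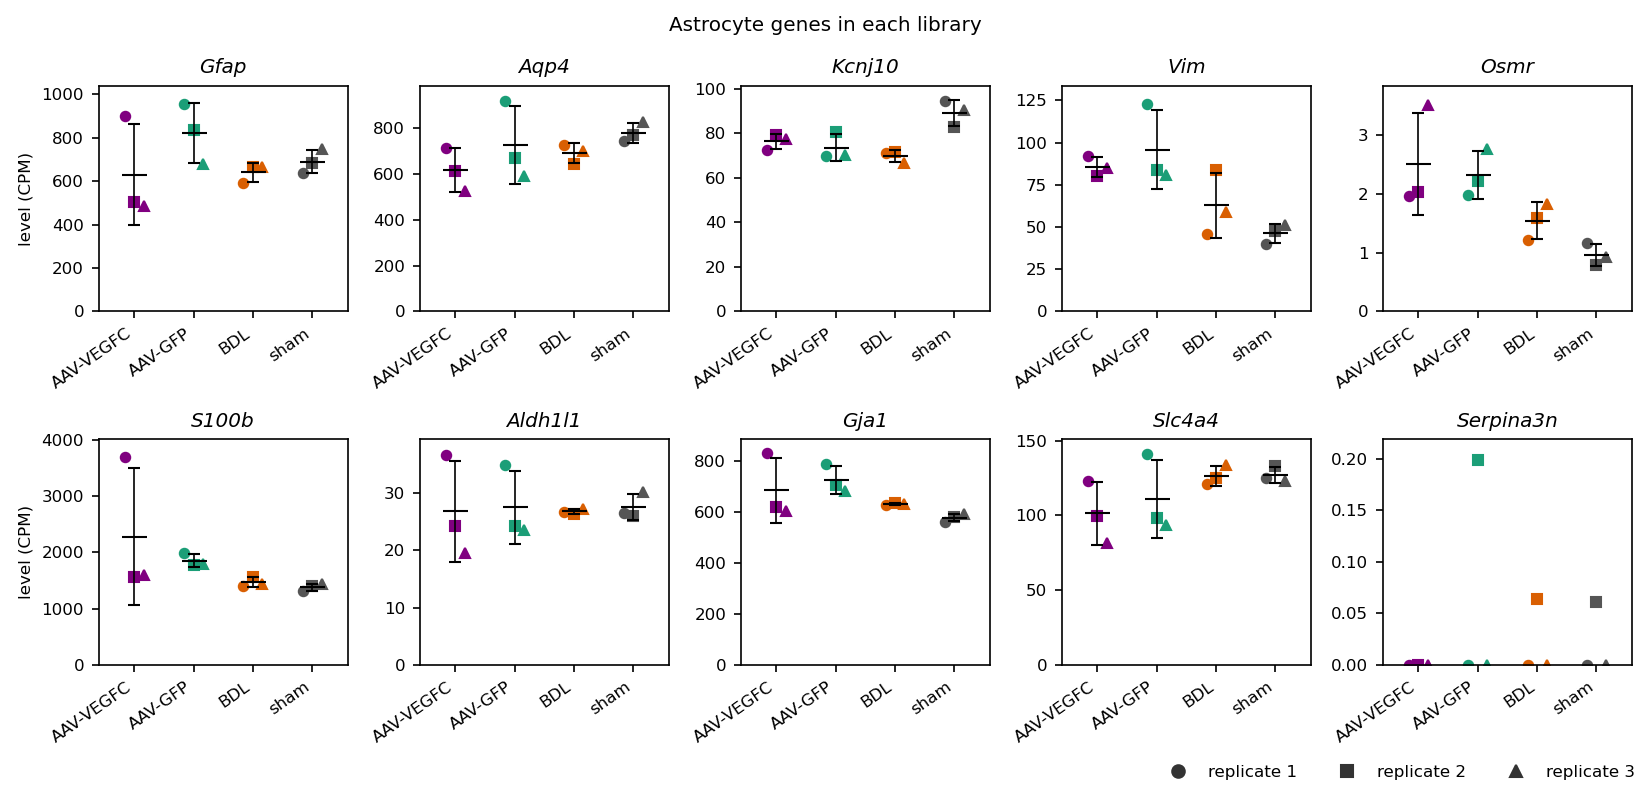
Level of each of the 10 genes in CPM (counts scaled to the size of the library, vertical axis from 0) in the 12 libraries, grouped along the horizontal axis. Points are libraries, with replicate numbers as shapes, and bars are the mean and SD of 3 libraries (none for Serpina3n). Every ligated library lies below every sham library for Kcnj10 and above every sham library for Osmr and Gja1, and S100b stands at 3700 CPM in AAV-VEGFC 1.

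Levels below are in CPM, counts divided by each library's total after scaling between libraries. The genes differ in length, so their levels are compared between libraries and not with each other. In bulk tissue, fewer cells of a type and less RNA per cell cannot be told apart. Of the 12 libraries 3 stood apart. AAV-VEGFC 1 and AAV-GFP 1 were each the highest of their group in 7 of the 9 tested members and the lowest in the other 2, Kcnj10 and Osmr, and sham 2 held 245 CPM of Ttr, a transcript of choroid plexus, where the other sham libraries held 1.31 and 1.03 CPM. The first 2 are set apart here by the members' own values. Sham 2 is set apart by Ttr, was left out after the data were seen, and had the lowest Kcnj10 of the sham libraries (82.9 CPM, beside 94.3 and 90.4 CPM). Passes in fits without these 3 libraries therefore give the members no separate support. Over all genes such a fit called 3646 in AAV-GFP against BDL, beside 795 with all libraries. In AAV-VEGFC against AAV-GFP it called 1193, beside 1. Totals ran from 40296297 to 51669067 counts per library. Against the label of middle brain, Slc17a7, which loads glutamate into vesicles in cortical neurons, was present at 1249 to 2029 CPM. Of the midbrain list, 9 of 10 genes had rows and summed to 52.5 to 82.5 CPM, of which Nr4a2, which cortical neurons also express, made up 43.1 to 72.9 CPM. Th, the dopamine-synthesis enzyme of midbrain neurons, lay between 0.652 and 1.7 CPM, and the midbrain factor Foxa1 was at 0 in all 12 libraries. The 26 other astrocyte genes listed all had rows, and together they took 10463 to 16989 CPM of each library.

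Among the channels and transporters, Kcnj10 had the smallest p of the members in BDL against sham. It is the main potassium channel of astrocytes and lets them clear potassium released by firing neurons. It had 72.7, 79.3 and 77.3 CPM in the AAV-VEGFC libraries, 69.9, 80.6 and 70.2 CPM in the AAV-GFP libraries, 71, 71.7 and 66.6 CPM in the BDL libraries, and 94.3, 82.9 and 90.4 CPM in the sham libraries. All 9 ligated libraries lay below all 3 sham libraries, and the 3 ligated groups overlapped each other except that AAV-VEGFC lay above BDL. In BDL against sham the mean was 69.8 ± 2.79 CPM in BDL and 89.2 ± 5.79 CPM in sham (SD, n = 3 each), a log2 fold change of -0.35 ± 0.08 (SE; 95% interval -0.52 to -0.18). With an adjusted p of 0.224 this did not pass, although Kcnj10 ranked 44 of 12850 genes by p. It passed under 4 of 21 alternatives: DESeq2 (adjusted p = 0.00629), limma voom (0.0121), the 6 libraries of these groups alone (0.0183) and the fit without the 3 libraries that stood apart (0.0244), with a range over all alternatives of 0.00629 to 0.845. Over the 9 ligated libraries Kcnj10 had a lowest value of 66.6, a median of 71.7 and a highest of 80.6 CPM. The mean of the ligated groups fell by 0.29 on the log2 scale against sham (-0.29 ± 0.06, adjusted p = 0.0157). That call ended without sham 1 (adjusted p = 0.127) or sham 3 (0.0926), over a range of 7.41e-04 to 0.127. The summed level of the 26 other astrocyte genes was 10463 to 11203 CPM in BDL and 10679 to 10907 CPM in sham, so the groups overlapped there. Kcnj16, which encodes a subunit that pairs with Kir4.1, had 16.3, 14.1 and 11.9 CPM in BDL against 9.83, 11.7 and 12.6 CPM in sham, and did not pass (log2 fold change 0.31 ± 0.53, adjusted p = 1).

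The 250 bases before the start of Kcnj10, the member with the smallest p in BDL against sham, and of Vim, which rose in the ligated groups together, are shown with TATAAA and CCAAT matches on either strand in capitals. They come from RefSeq on build GRCr8, while the counts rest on rn6. Kcnj10 lies at chr13:87334260-87334509 (+) and Vim at chr17:81577011-81577260 (+). For Osmr the 30 bases around a match to the AP-1 motif TGANTCA, whose first base lies 33 bases before the listed start, are at chr2:57688576-57688605 (-).
Kcnj10: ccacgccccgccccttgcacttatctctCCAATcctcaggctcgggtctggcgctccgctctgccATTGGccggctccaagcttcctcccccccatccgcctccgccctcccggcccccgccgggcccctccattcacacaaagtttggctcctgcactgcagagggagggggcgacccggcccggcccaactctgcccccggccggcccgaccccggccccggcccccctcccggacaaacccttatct
Vim: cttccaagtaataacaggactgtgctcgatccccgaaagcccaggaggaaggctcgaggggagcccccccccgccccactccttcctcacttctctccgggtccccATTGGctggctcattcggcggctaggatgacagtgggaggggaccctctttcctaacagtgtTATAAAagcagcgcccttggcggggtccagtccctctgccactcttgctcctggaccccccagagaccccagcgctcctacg
Osmr: tgccccgcagcTGATTCAtagccggggcgc
The window of Kcnj10 holds 2 CCAAT matches and no TATAAA, and 72.4% of its bases are G or C, against 62.4% in that of Vim. Over the 33469 rat windows of this length, 34% hold CCAAT, 12.9% TATAAA, 6.34% TGANTCA and 7.67% the STAT motif TTCNNNGAA. Of the 10 members, all of which matched a sequence, 5 hold CCAAT, 1 TATAAA (Vim), 2 TGANTCA (Osmr and Gja1) and 1 TTCNNNGAA (Serpina3n). A match is a description of letters and shows no binding.

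Aqp4, the water channel of astrocyte end-feet, did not pass in any comparison by the edgeR test. Its levels were 716, 613 and 527 CPM with AAV-VEGFC, 919, 669 and 593 CPM with AAV-GFP, 729, 643 and 702 CPM in BDL, and 744, 770 and 830 CPM in sham. The BDL libraries all lay below the sham libraries, by a narrow margin, and AAV-GFP 1 lay above all others. The log2 fold change of BDL against sham was -0.18 ± 0.15 (95% interval -0.51 to 0.16, adjusted p = 1). Against AAV-GFP, AAV-VEGFC gave -0.23 ± 0.15 (interval -0.57 to 0.10, adjusted p = 0.948). For the 3 ligated groups against sham it was -0.21 ± 0.12 (adjusted p = 0.297), which passed with limma voom (0.00709) and without the 3 libraries that stood apart (0.0123), over a range of 0.00709 to 0.572. Without those 3 libraries AAV-VEGFC against BDL passed too (-0.28, adjusted p = 0.0447).

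Slc4a4, the sodium bicarbonate cotransporter of astrocytes, showed no difference that passed between BDL and sham. It had 121, 125 and 134 CPM in BDL and 125, 133 and 123 CPM in sham, and the log2 fold change was 0.00 ± 0.16 (interval -0.36 to 0.35). With a virus it spread out, at 123, 99.7 and 81.3 CPM with AAV-VEGFC and 141, 98.4 and 93.8 CPM with AAV-GFP. In both virus groups replicate 1 lay close to or above the sham libraries and the other libraries lay below all BDL and sham libraries. AAV-VEGFC against BDL gave -0.33 ± 0.16 (adjusted p = 0.208), which passed with limma voom (0.0123) and without the 3 libraries that stood apart (0.004), over a range of 0.004 to 0.454. AAV-GFP against BDL gave -0.19 ± 0.16 (adjusted p = 0.547), with passes under the same 2 alternatives (0.00505 and 0.00697) over a range of 0.00505 to 0.855. For the 3 ligated groups against sham it was -0.18 ± 0.13 (adjusted p = 0.407). These 2 alternatives passed there too (0.00911 and 0.0227), over a range of 0.00911 to 0.632. Slc4a4 overlaps an uncharacterised locus, LOC134481884, on build GRCr8, and reads of the 2 cannot be told apart without the strand.

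Gja1, the gap junction protein that joins astrocytes into a network, was a little higher in every ligated library than in sham. The values were 832, 619 and 606 CPM with AAV-VEGFC, 790, 707 and 683 CPM with AAV-GFP, 628, 638 and 633 CPM in BDL, and 562, 582 and 591 CPM in sham. The BDL libraries lay close together and just above the sham libraries. BDL against sham was 0.13 ± 0.11 (adjusted p = 1) and AAV-GFP against BDL was 0.20 ± 0.11 (adjusted p = 0.346). The latter passed without AAV-VEGFC 1, a library of neither group (0.0209), with limma voom (0.0304) and without the 3 libraries that stood apart (0.029). Without those 3, AAV-VEGFC against AAV-GFP passed as well (-0.18, adjusted p = 0.0303), against -0.08 ± 0.11 (adjusted p = 0.959) with all libraries. For the ligated groups against sham the log2 fold change was 0.23 ± 0.09 (interval 0.03 to 0.44, adjusted p = 0.128), with passes without AAV-VEGFC 1 (0.0139), with limma voom (0.00505) and without the 3 libraries that stood apart (0.00775), over a range of 0.00505 to 0.362.

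Gfap, the filament that defines reactive astrocytes in histology, was not called in any comparison. It had 898, 503 and 486 CPM with AAV-VEGFC, 954, 833 and 679 CPM with AAV-GFP, 589, 665 and 666 CPM in BDL, and 639, 685 and 746 CPM in sham. The BDL and sham libraries overlapped, while all AAV-GFP libraries lay above all BDL libraries and the AAV-VEGFC group held both the lowest values of the series and 1 of the highest. BDL against sham was -0.11 ± 0.21, and the 95% interval of -0.57 to 0.35 holds changes of either sign. AAV-GFP against BDL was 0.36 ± 0.21 (adjusted p = 0.367), and it passed without AAV-VEGFC 1, a library of neither group (0.0371), over a range of 0.0371 to 0.625. AAV-VEGFC against AAV-GFP was -0.39 ± 0.21 (interval -0.84 to 0.07, adjusted p = 0.948). Without the 3 libraries that stood apart it was -0.60 (adjusted p = 0.0117), over a range of 0.0117 to 1, and without AAV-VEGFC 1 the log2 fold change was -0.73 (adjusted p = 0.0565). AAV-VEGFC against BDL was -0.02 ± 0.21 (adjusted p = 0.955), and -0.37 without those 3 libraries (adjusted p = 0.0245).

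Vim, the filament that reactive astrocytes share with endothelial, meningeal and ependymal cells, had 91.8, 80.1 and 85.1 CPM with AAV-VEGFC, 123, 84 and 80.6 CPM with AAV-GFP, 46, 83.6 and 59 CPM in BDL, and 40, 47.9 and 51.1 CPM in sham. All 6 virus libraries lay above all sham libraries, and BDL ran from within the sham range to the level of the virus groups. BDL averaged 62.9 ± 19.1 CPM and sham 46.3 ± 5.74 CPM (0.44 ± 0.21, adjusted p = 0.887). AAV-GFP against BDL was 0.61 ± 0.21 (adjusted p = 0.122) and passed by DESeq2 (0.0449) and without BDL 2 (0.0398), over a range of 0.0398 to 0.36. The ligated groups together rose by 0.79 ± 0.18 against sham (1.73-fold, adjusted p = 0.0188), with a lowest value of 46, a median of 83.6 and a highest of 123 CPM. That call ended without sham 1 (0.129), sham 2 (0.0662) or sham 3 (0.0648), over a range of 2.04e-04 to 0.129.

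**Figure D2:**
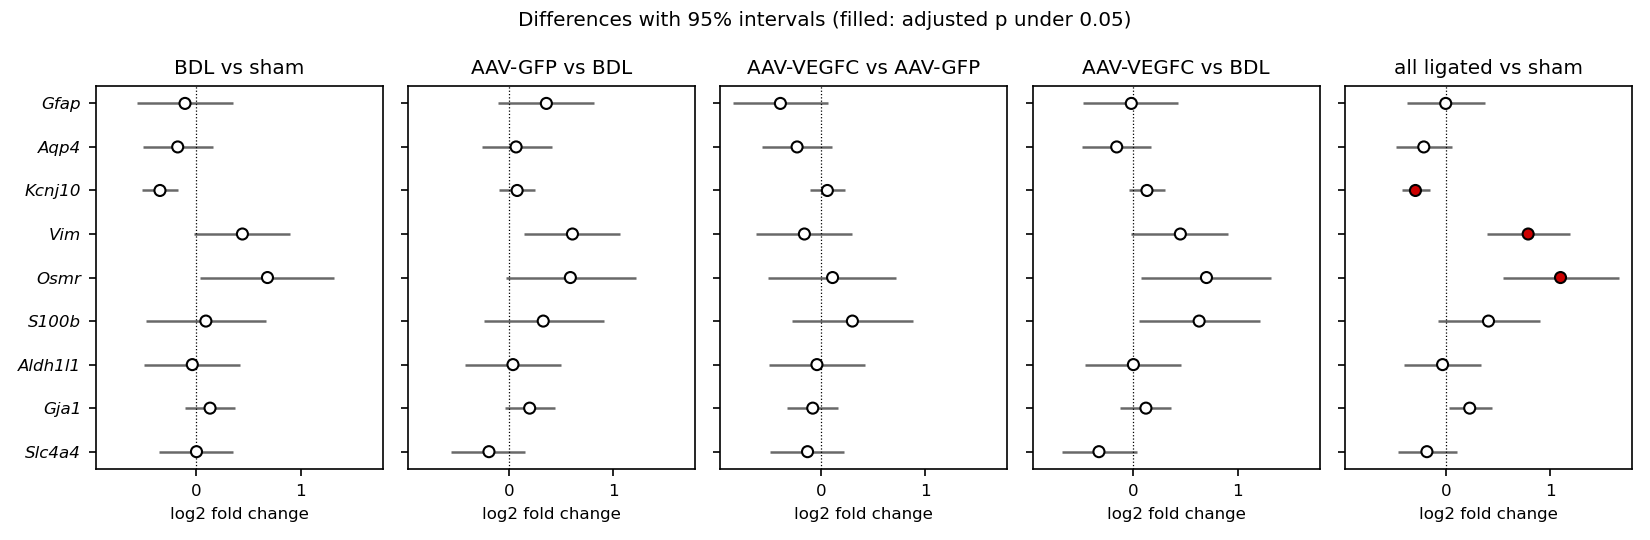
Log2 fold change (horizontal axis) of the 9 tested genes in each comparison, with 95% intervals per gene from the edgeR fit. Filled points passed an adjusted p under 0.05: only Kcnj10 (-0.29), Vim (0.79) and Osmr (1.10) in all ligated groups against sham did, a comparison added after the values had been seen.

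Osmr, the receptor through which oncostatin M acts on glia and endothelium, had the largest fold change of the 9 tested members in the ligated groups against sham. It had 1.97, 2.04 and 3.52 CPM with AAV-VEGFC, 1.98, 2.23 and 2.77 CPM with AAV-GFP, 1.21, 1.59 and 1.83 CPM in BDL, and 1.17, 0.795 and 0.932 CPM in sham. Every ligated library lay above every sham library, and every virus library above every BDL library. The reads behind these levels were few, with 39 to 60 counts per sham library and 56 to 91 per BDL library. BDL against sham was 0.68 ± 0.29 (1.6-fold, interval 0.03 to 1.32, adjusted p = 0.81), AAV-GFP against BDL 0.59 ± 0.28 (adjusted p = 0.271, and 0.0231 with limma voom) and AAV-VEGFC against BDL 0.70 ± 0.28 (adjusted p = 0.134). The ligated groups together rose by 1.10 ± 0.25 against sham (2.15-fold, adjusted p = 0.0188), with a median of 1.98 CPM over 9 libraries. That call ended without sham 1 (0.0587), sham 2 (0.0914) or sham 3 (0.099), over a range of 5.26e-04 to 0.099.

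Serpina3n, a secreted protease inhibitor that is a strong marker of reactive astrocytes in mice, was almost without reads. The 12 libraries together held 15 counts of it: 9 in AAV-GFP 2, 3 in BDL 2 and 3 in sham 2, with 0 in the other 9. Its paralogs in the table, Serpina3c and Serpina3m, had 5 and 0 counts over all libraries. It belongs to a family of similar copies, so its level is uncertain here.

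S100b and Aldh1l1 are identity markers of astrocytes. S100b, a calcium-binding protein that mature oligodendrocytes also make, had 3700, 1556 and 1598 CPM with AAV-VEGFC, 1995, 1771 and 1799 CPM with AAV-GFP, 1409, 1567 and 1444 CPM in BDL, and 1312, 1405 and 1429 CPM in sham. AAV-VEGFC 1 stood far above the others of its group, and the AAV-GFP libraries all lay above the BDL libraries. AAV-GFP against BDL was 0.33 ± 0.26 (adjusted p = 0.517), and passed without AAV-VEGFC 1, a library of neither group (0.00308), in the 6 libraries of these groups (0.0202), with limma voom (0.0124) and without the 3 libraries that stood apart (0.00515), over a range of 0.00308 to 0.71. Against BDL, AAV-VEGFC gave 0.63 ± 0.26 (adjusted p = 0.139), and 0.10 without AAV-VEGFC 1. It passed without AAV-VEGFC 2 (0.85, adjusted p = 0.045), over a range of 0.045 to 0.345. The ligated groups against sham gave 0.41 ± 0.22 (adjusted p = 0.243). That passed without AAV-VEGFC 1 (0.00649), with limma voom (0.0148) and without the 3 libraries that stood apart (0.00777), over a range of 0.00649 to 0.498. S100b overlaps Dip2a on build GRCr8, and without the strand of counting their reads cannot be told apart there.

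Aldh1l1, a folate enzyme used as a marker of all astrocytes, had 36.7, 24.3 and 19.5 CPM with AAV-VEGFC, 34.9, 24.3 and 23.5 CPM with AAV-GFP, 26.8, 26.4 and 27.3 CPM in BDL, and 26.5, 26.1 and 30.2 CPM in sham. BDL and sham overlapped (-0.04 ± 0.21, interval -0.50 to 0.42). In the virus groups replicate 1 was high and the other 2 libraries lay below BDL and sham.

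**Figure D3:**
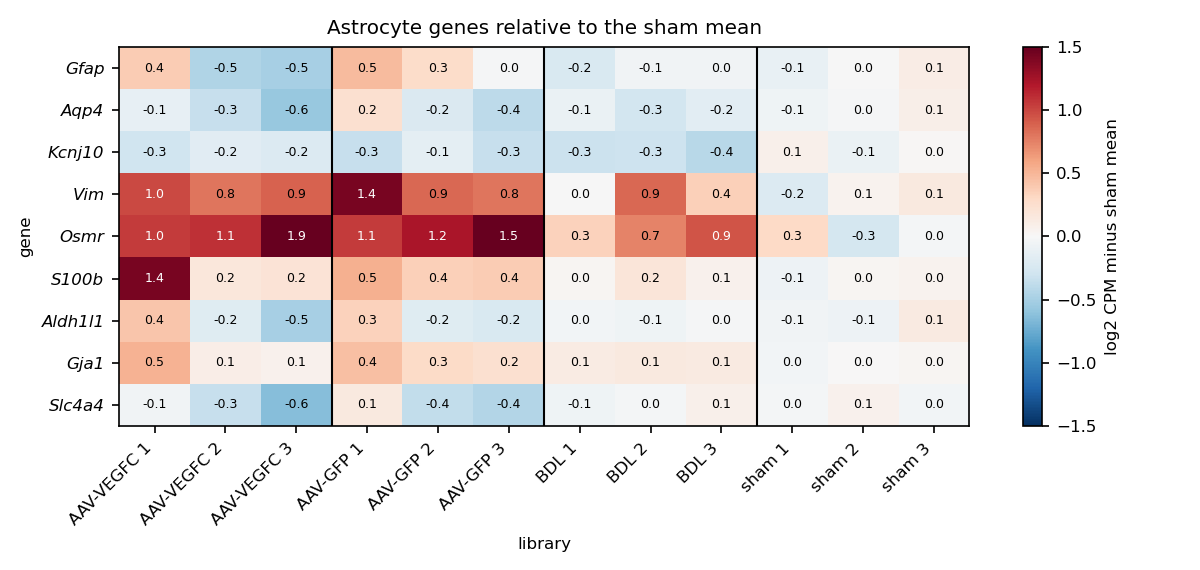
Log2 CPM of the 9 tested genes in each library minus the mean of the 3 sham libraries, with the difference printed in each cell. Rows are genes, columns are libraries and lines part the groups. Osmr and Vim are raised across the virus libraries, Kcnj10 is lower in all 9 ligated libraries, and AAV-VEGFC 1 and AAV-GFP 1 differ from their groups in most rows.

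Groups that did not overlap were counted as a description. In BDL against sham 4 of 9 tested members parted the groups (Osmr and Gja1 higher, Aqp4 and Kcnj10 lower), where 25.0% of all tested genes did, 12.6% higher and 12.4% lower. In AAV-GFP against BDL 4 of 9 did, all higher (Gfap, Osmr, S100b and Gja1), where 38.1% of all genes parted the groups with 18.2% higher and 20.0% lower. In AAV-VEGFC against AAV-GFP 0 of 9 did, where 6.06% of all genes did. In AAV-VEGFC against BDL 2 of 9 did (Kcnj10 and Osmr, higher), where 32.9% of all genes did, 14.6% higher and 18.3% lower. Over all 9 ligated libraries against sham 3 did (Osmr and Gja1 higher, Kcnj10 lower), where 9.67% of all genes did, 5.05% higher and 4.62% lower. The median log2 fold change of the 9 members was 0.00 in BDL against sham, 0.20 in AAV-GFP against BDL, -0.08 in AAV-VEGFC against AAV-GFP and 0.12 in AAV-VEGFC against BDL, beside 0.01, 0.01, 0.01 and 0.00 over all genes. In all ligated groups against sham it was 0.00, beside 0.01 over all genes.

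Markers of other cells moved with some of these genes. The 9 endothelial markers found, of 10 listed, summed to 538 to 572 CPM with AAV-VEGFC, 493 to 549 CPM with AAV-GFP, 318 to 436 CPM in BDL and 274 to 315 CPM in sham. The 10 microglial markers summed to 482 to 795 CPM with AAV-VEGFC, 528 to 801 CPM with AAV-GFP, 426 to 511 CPM in BDL and 390 to 448 CPM in sham. The 10 of meninges and fibroblasts summed to 308 to 434 CPM with AAV-VEGFC, 345 to 566 CPM with AAV-GFP, 220 to 613 CPM in BDL and 181 to 265 CPM in sham. The 9 pericyte and smooth muscle markers summed to 156 to 184 CPM with AAV-VEGFC, 154 to 217 CPM with AAV-GFP, 114 to 153 CPM in BDL and 113 to 134 CPM in sham. On all 4 of these lists every virus library lay above every sham library. The 8 blood markers summed to 954 to 1330 CPM with AAV-VEGFC, 822 to 914 CPM with AAV-GFP, 439 to 871 CPM in BDL and 117 to 158 CPM in sham. No gene of these 5 lists with a row was at 0 throughout. BDL 2, the highest BDL library for Vim, also held the highest sum of the meningeal list. Ptgds alone made up most of that list's sums, with 486 CPM in BDL 2. It held 252 to 426 CPM in the virus libraries and 136 to 172 CPM in sham. The part of the cells behind these 5 lists in the values of Vim and Osmr was not tested. AAV-VEGFC 1, with the highest S100b, had the highest sums of the 10 oligodendrocyte markers (19611 CPM, against 11858 and 15621 CPM in the other AAV-VEGFC libraries), of the 26 astrocyte genes (16989 CPM, against 11214 and 10816 CPM) and of the 8 ependymal markers with a row (74.8 CPM, against 35.3 and 36.5 CPM), and the lowest sum of the 12 neuronal markers (7565 CPM, against 10341 and 10002 CPM). AAV-GFP 1 had the lowest neuronal sum of its group too (8859 CPM, against 10644 and 10293 CPM). Regional markers varied within the virus groups as well. The 8 hypothalamic and pituitary markers summed to 13.4, 10.5 and 58.1 CPM with AAV-VEGFC, 86.4, 4 and 3.28 CPM with AAV-GFP, 3.1 to 3.25 CPM in BDL and 2.48 to 7.03 CPM in sham. The 8 striatal markers summed to 610, 740 and 1573 CPM with AAV-VEGFC, 1188, 310 and 658 CPM with AAV-GFP, 424 to 725 CPM in BDL and 458 to 970 CPM in sham. AAV-GFP 1 and AAV-VEGFC 3 were the high libraries of both lists. The part of these differences in the levels of the members was not tested. Rn18s, an 18S ribosomal RNA, lay between 4245 and 11883 CPM in the virus libraries and between 1357 and 2989 CPM in the others, so the virus groups stood apart there too.

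**Figure D4:**
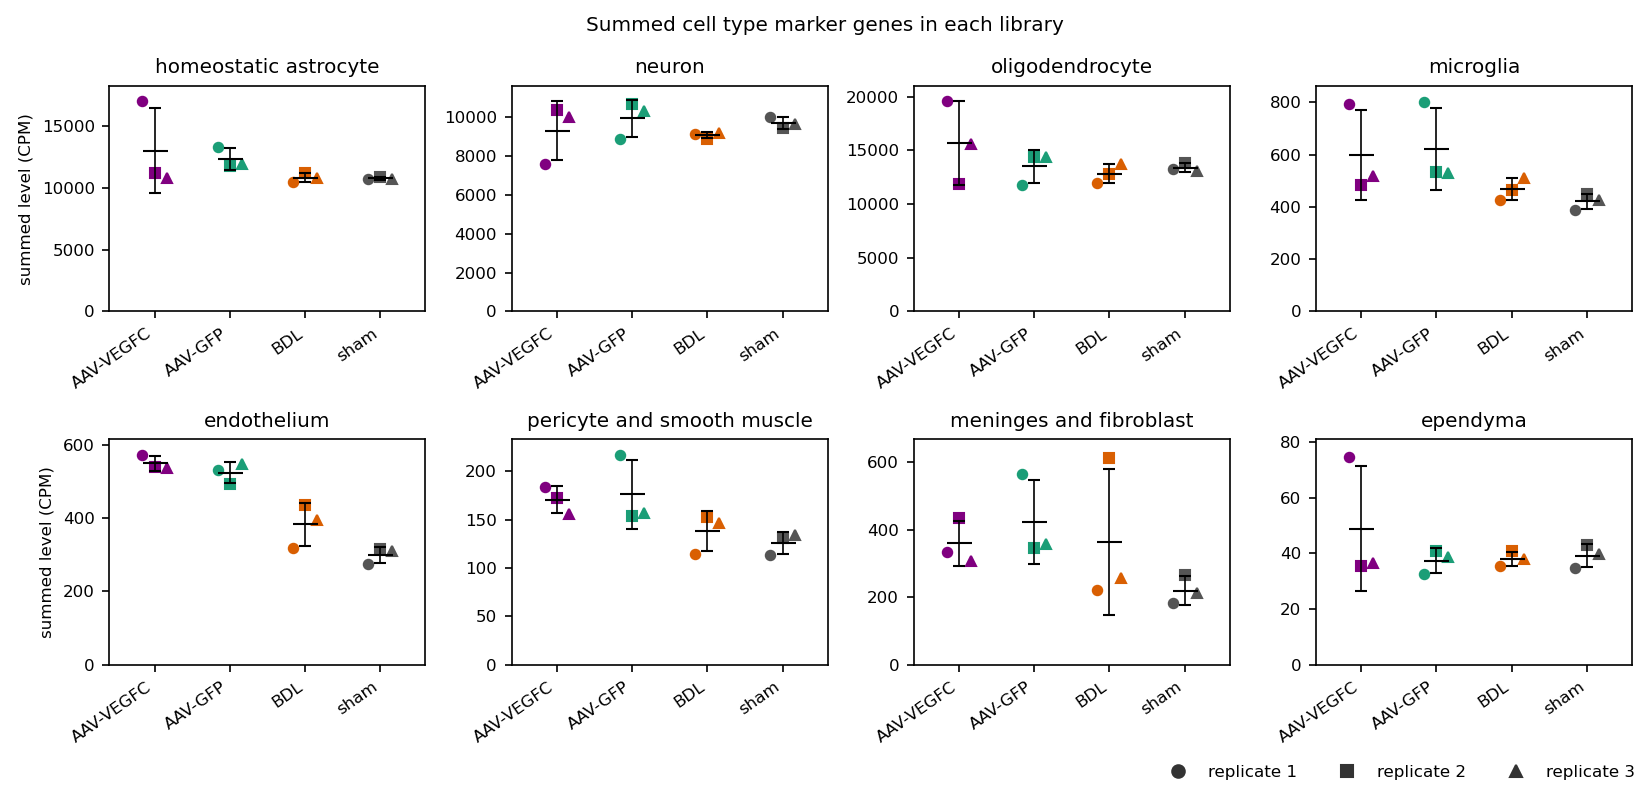
Summed CPM (vertical axes from 0) of marker lists of 8 cell types in the 12 libraries, with mean and SD of 3 libraries. Endothelial markers stand at 493 to 572 CPM in the virus groups and 274 to 315 CPM in sham, and AAV-VEGFC 1 is high for astrocyte, oligodendrocyte and ependymal lists and low for neurons.

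Genes that handle cell volume, water and ions were followed as a list of 30, of which 27 had rows and 26 were tested. In BDL against sham 0 passed by edgeR, 0 by DESeq2 and 2 by limma voom. There 3 had an unadjusted p under 0.05 (all lower), where 5.90% of all genes did in either direction. The median log2 fold change was -0.02 beside 0.01 over all genes. The smallest p was that of Slc5a3, the transporter of the osmolyte myo-inositol, at 8.76, 8.18 and 9.76 CPM in BDL against 14.7, 12.2 and 14.9 CPM in sham (-0.65 ± 0.22, adjusted p = 0.644). By edgeR 4 of the 26 fell and 0 rose in all ligated groups against sham, beside 7.00% and 3.02% of all genes. There 9 had an unadjusted p under 0.05, 3 higher and 6 lower, where 27.6% of all genes did. DESeq2 called 6 (2 higher, 4 lower) and limma voom 10 (3 higher, 7 lower), where these tools called 2194 and 4506 of the 12850 genes. Slc5a3 fell by 0.88 on the log2 scale (-0.88 ± 0.17, adjusted p = 0.00808), with a lowest value of 4.49, a median of 7.76 and a highest of 9.76 CPM over the 9 ligated libraries. Lrrc8b (-0.55 ± 0.14, adjusted p = 0.031) and Lrrc8c (-0.46 ± 0.12, adjusted p = 0.0405), subunits of the anion channels that open when cells swell, fell as well. Agrn, the matrix proteoglycan agrin around end-feet, fell too (-0.49 ± 0.10, adjusted p = 0.0121), but its BDL libraries held 165, 165 and 162 CPM against 174, 162 and 157 CPM in sham, and the low values were those of the virus groups. AAV-GFP against BDL was -0.73 ± 0.13 for Agrn (99 ± 13.7 CPM with AAV-GFP and 164 ± 1.69 CPM in BDL, SD, n = 3 each; adjusted p = 0.00625), the single gene of the 26 that passed by edgeR there, where 5.20% of all genes fell and 0.988% rose. In that comparison 7 had an unadjusted p under 0.05, where 20.7% of all genes did. By DESeq2 2 passed and by limma voom 11, 6 higher and 5 lower. Over all 12850 genes DESeq2 called 1485 there and limma voom 4687.

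By edgeR AAV-VEGFC against BDL called 3 of these 26 genes, 1 higher and 2 lower, where 2.91% of all genes rose and 7.02% fell. There 7 had an unadjusted p under 0.05, 4 higher and 3 lower, where 29.2% of all genes did. By DESeq2 4 passed and by limma voom 4, each with 2 higher and 2 lower. Over all 12850 genes these tools called 2347 and 2488. Agrn fell (-0.73 ± 0.13, adjusted p = 0.00473), as did Slc4a7, another sodium bicarbonate cotransporter (-0.87 ± 0.24, adjusted p = 0.0463), and Akr1b1, the aldose reductase that makes the osmolyte sorbitol, rose (0.49 ± 0.11, adjusted p = 0.0175). Akr1b1 had 78.5, 57.3 and 56.1 CPM with AAV-VEGFC and 46, 46 and 45 CPM in BDL, with no overlap. Slc12a2, the sodium, potassium and chloride cotransporter NKCC1 that takes part in astrocyte swelling, had 186 to 262 CPM with AAV-VEGFC, 212 to 244 CPM with AAV-GFP, 211 to 245 CPM in BDL and 249 to 253 CPM in sham, and did not pass in any comparison (smallest adjusted p 0.392). AAV-VEGFC against AAV-GFP called 0 of the 26 by edgeR, DESeq2 or limma voom. There 1 had an unadjusted p under 0.05 (Lrrc8d, -0.31 ± 0.13, adjusted p = 0.948), where 4.37% of all genes did.

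**Figure D5:**
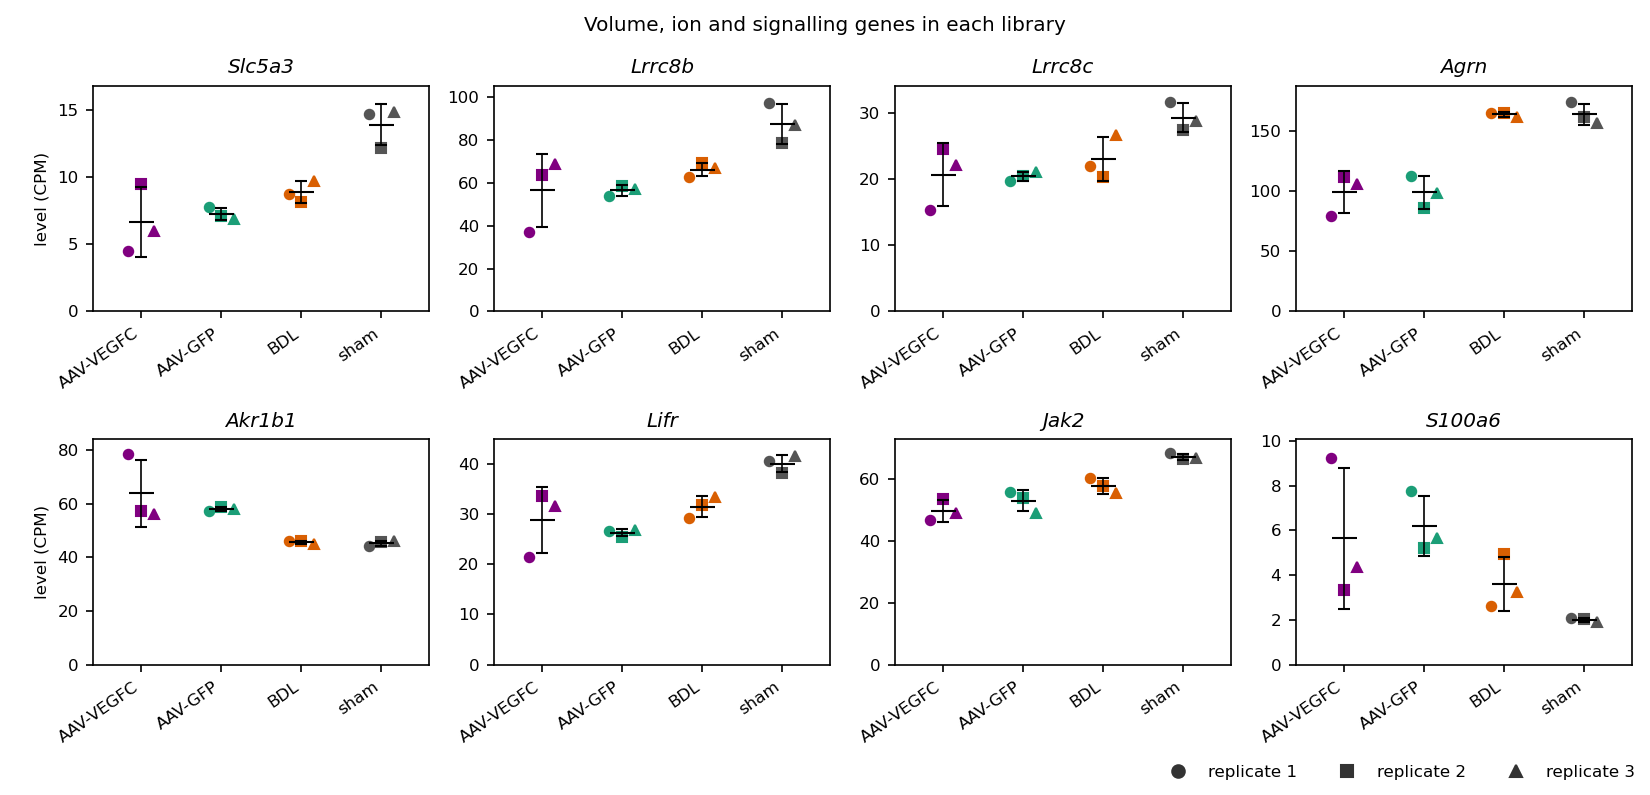
Level in CPM (vertical axes from 0) of 8 genes of the volume, signalling and reactive lists in the 12 libraries, with mean and SD of 3 libraries. Slc5a3, Lrrc8b, Lrrc8c, Lifr and Jak2 lie lower in every ligated library than in sham, S100a6 higher, and Agrn is at 79.2 to 113 CPM in the virus groups and 162 to 165 CPM in BDL.

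Of the reactive astrocyte list of 38 genes, 36 were tested. BDL against sham called 0 by edgeR, where 0.109% of all genes passed, 0 by DESeq2 and 1 by limma voom. There 4 had an unadjusted p under 0.05, where 5.90% of all genes did. The median log2 fold change was 0.10 beside 0.01 over all genes. Its smallest p was that of S1pr3, a sphingosine phosphate receptor, which was lower (-0.40 ± 0.12, adjusted p = 0.513). In AAV-GFP against BDL edgeR called 1 of 36, where 6.19% of all genes passed: Srgn, the granule proteoglycan serglycin (0.61 ± 0.15, adjusted p = 0.0317). There 12 had an unadjusted p under 0.05, 11 of them higher, where 20.7% of all genes did in either direction. The list's median log2 fold change was 0.35 beside 0.01 over all genes. By DESeq2 3 passed and by limma voom 11, where these tools called 1485 and 4687 of the 12850 genes. The list summed to 604, 490 and 462 CPM in the AAV-GFP libraries and 364 to 428 CPM in BDL. C3 made up 176, 43 and 44.8 CPM of the AAV-GFP sums. AAV-VEGFC against AAV-GFP called 0 by edgeR, DESeq2 or limma voom. There 4 had an unadjusted p under 0.05, where 4.37% of all genes did, and the median was -0.18 beside 0.01. Amigo2, an adhesion protein, had the smallest p there (-0.68 ± 0.22, adjusted p = 0.948). In AAV-VEGFC against BDL edgeR called 3 of 36, where 9.93% of all genes passed, DESeq2 5 and limma voom 3. There 5 had an unadjusted p under 0.05, where 29.2% of all genes did, and the median was 0.04. Srgn (0.52 ± 0.15, adjusted p = 0.045) and Fbln5, an elastic fibre protein (0.62 ± 0.18, adjusted p = 0.0491), rose, and Ptgs2, cyclooxygenase 2, fell (-0.86 ± 0.23, adjusted p = 0.037). In all ligated groups against sham edgeR called 5 of 36, 3 higher and 2 lower, where 10% of all genes passed, 3.02% higher and 7.00% lower. There 14 had an unadjusted p under 0.05, where 27.6% of all genes did. By DESeq2 11 passed and by limma voom 13, and the list's median was 0.30. Over all 12850 genes DESeq2 called 2194 and limma voom 4506. S100a6 rose by 1.32 ± 0.31 (adjusted p = 0.0234), Cd14, a receptor of microglia and macrophages, by 0.90 ± 0.21 (adjusted p = 0.0195) and Srgn by 0.60 ± 0.12 (adjusted p = 0.0117). Ptgs2, which neurons also make, fell (-0.80 ± 0.18, adjusted p = 0.0162), and so did Clcf1, a cytokine of the interleukin 6 family (-1.14 ± 0.30, adjusted p = 0.0353). Lcn2, a secreted protein often used as a marker of reactive glia, had 0.715, 1.34 and 1.71 CPM in BDL against 0.645, 0.877 and 0.598 CPM in sham. It did not pass in BDL against sham (0.83 ± 0.53, adjusted p = 0.983). With AAV-GFP it had 1.92, 2.17 and 2.35 CPM, above every BDL and sham library, and with AAV-VEGFC 4.46, 0.778 and 2.09 CPM.

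Oncostatin M signals through Osmr paired with Il6st to the kinases Jak1, Jak2 and Tyk2 and the factor Stat3. Of 20 genes listed for this pathway 16 were tested. The ligands Osm, Il6 and Lif had too few reads to be tested. BDL against sham called 0 of 16 by edgeR, where 0.109% of all genes passed, and 0 by DESeq2. There 2 had an unadjusted p under 0.05, where 5.90% of all genes did, and 2 passed by limma voom. Jak2 had the smallest p, at 57.8 ± 2.58 CPM in BDL and 67.3 ± 1.02 CPM in sham (-0.22 ± 0.07, adjusted p = 0.627). In all ligated groups Jak2 (-0.33 ± 0.06, adjusted p = 0.00523) and Lifr, the receptor of leukaemia inhibitory factor (-0.47 ± 0.11, adjusted p = 0.0196), fell against sham, 2 of 16 by edgeR, where 10% of all genes passed and 7.00% fell. By DESeq2 2 passed, and by limma voom 5, 1 higher and 4 lower, where these tools called 2194 and 4506 of the 12850 genes. Stat3 (-0.14 ± 0.08, adjusted p = 0.261) and Socs3, its feedback inhibitor (0.18 ± 0.30, adjusted p = 0.731), did not pass. AAV-GFP against BDL called 0 by edgeR, where 6.19% of all genes passed, 2 by DESeq2 and 4 by limma voom. There 2 had an unadjusted p under 0.05, where 20.7% of all genes did. AAV-VEGFC against AAV-GFP called 0 by any of the 3 tools. None had an unadjusted p under 0.05, where 4.37% of all genes did (smallest p for Tyk2, -0.24 ± 0.14, adjusted p = 0.948). AAV-VEGFC against BDL called 1 of 16 by edgeR, where 9.93% of all genes passed and 7.02% fell: Tyk2, which fell (-0.70 ± 0.14, adjusted p = 0.00838).

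By edgeR the other astrocyte genes gave 0 or 1 call in each comparison, and by limma voom up to 11. Of all genes edgeR called 0.109% in BDL against sham, 6.19% in AAV-GFP against BDL and 0.00778% in AAV-VEGFC against AAV-GFP. It called 9.93% in AAV-VEGFC against BDL and 10% in all ligated groups against sham. Over all 12850 genes limma voom called 4687 in AAV-GFP against BDL and 4506 in all ligated groups against sham. An unadjusted p under 0.05 was found for 5.90% of all genes in BDL against sham and 20.7% in AAV-GFP against BDL. In all ligated groups against sham that share was 27.6%. Of 26 tested, BDL against sham called 0 by edgeR and DESeq2, with 2 at an unadjusted p under 0.05 and 1 by limma voom. Slc25a18, a mitochondrial glutamate carrier, had the smallest p (-0.53 ± 0.18, adjusted p = 0.619). In AAV-GFP against BDL edgeR called 1, the zinc transporter Slc39a12 (3.16 ± 0.40, adjusted p = 8.24e-04), with 5 at an unadjusted p under 0.05, 3 by DESeq2 and 11 by limma voom, 8 higher and 3 lower. It averaged 1.42 ± 1.08 CPM with AAV-VEGFC, 15.9 ± 0.756 CPM with AAV-GFP and 1.77 ± 0.172 CPM in BDL (SD, n = 3 each), and AAV-VEGFC against AAV-GFP also called it, in the other direction (-3.49 ± 0.41, adjusted p = 0.0385). AAV-VEGFC against BDL called Glul, the glutamine synthetase, at 2326 ± 299 CPM with AAV-VEGFC and 1885 ± 17.2 CPM in BDL (0.30 ± 0.08, adjusted p = 0.0394). AAV-GFP against BDL gave the same fold change for Glul (0.30 ± 0.08) at an adjusted p of 0.0523, with 2326 ± 96.4 CPM with AAV-GFP. All ligated groups against sham called 0 by edgeR, with 3 at an unadjusted p under 0.05, 2 by DESeq2 and 11 by limma voom, and Slc39a12 had the smallest p (1.10 ± 0.33, adjusted p = 0.0617).

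Many of these calls ended when 1 library was left out. Of the 11 list genes called in all ligated groups against sham, all 11 calls ended without sham 1 (adjusted p 0.0516 to 0.209), 10 without sham 3 (0.0523 to 0.143) and 6 without sham 2 (0.0541 to 0.168). Leaving out another library there ended up to 3, of Lrrc8b, Lrrc8c and Clcf1. Of the 8 called in AAV-VEGFC against BDL, 6 ended without BDL 1, BDL 2 or BDL 3 (up to 0.164), up to 5 without another single library, and all 8 in a fit of these 6 libraries alone (0.0501 to 0.199). Srgn in AAV-GFP against BDL ended without AAV-GFP 2 (0.103), AAV-GFP 3 (0.115), BDL 1 (0.131), BDL 2 (0.0639), BDL 3 (0.0626) or sham 2 (0.0543). Slc39a12 in AAV-VEGFC against AAV-GFP ended without any of 9 libraries, with the highest adjusted p at 0.339 without AAV-VEGFC 2, and at 0.748 in the 6 libraries alone, while its log2 fold change stayed between -4.29 and -3.13. In AAV-GFP against BDL, Slc39a12 and Agrn passed under all 21 alternatives, at an adjusted p of up to 0.00685 for Slc39a12 and 0.0331 for Agrn.

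The genes whose profile over the 12 libraries was most like that of Gfap were Rassf4, Vav1 and Fam181b, with root mean square differences of centred log2 CPM of 0.12, 0.133 and 0.137, where Gfap itself had an SD of 0.298. For Aqp4, with an SD of 0.219, they were Mtss1l, the urea transporter Slc14a1 and Folh1, at 0.104, 0.104 and 0.109. The search ran over 11243 genes, and all profiles share the same libraries.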

How the data were processed

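Per the labels' protocols, 200 ng of Trizol-extracted brain RNA went into each TruSeq library. The submitters' processing notes name FastQC, Trimmomatic 0.36, HISAT2, featureCounts and build rn6. No annotation or strand setting was given in the sources used here. Raw counts were deposited by the authors per gene symbol, in 11 files of 1 library and a table of all 12, whose columns equal the single files. In it, 26 rows carry dates in place of gene names and 4 repeat a name. Unused columns numbered 0. Chi-square per degree of freedom between libraries of a group was 11.6 to 227, so no pair looked like repeats of 1 library. Nothing beyond the design text ties libraries to separate rats. The p-values therefore weigh differences against the spread between these libraries, which the model estimates from all 12.

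In edgeR 4.0.16 under R 4.3.3, libraries were scaled by TMM and filterByExpr left 12850 genes, to which 1 quasi-likelihood model of 12 libraries with a mean per group was fitted. SE came from the fold change and F statistic, and 95% intervals are per gene, unadjusted for the number of genes. Adjusted p is Benjamini-Hochberg over all genes tested. CPM were computed from the counts and TMM factors. Alternatives were DESeq2 1.42.0, limma 3.58.1 voom with quality weights, other filters, scalings and thresholds, the compared groups alone, a replicate block and each library left out. Added after seeing the data were the comparison of all ligated groups with sham and the fits without 3 libraries (sham 2, AAV-GFP 1 and AAV-VEGFC 1) and without abundant genes. The test was tried on simulated data with the spread estimated from these libraries, in the 4 comparisons between single groups. It recovered 34.3% to 53% of 1.5-fold changes and 59.7% to 67.7% of 2-fold changes, so changes of that size can be missed. Figures used matplotlib 3.10.9 under Python 3.11.15.

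The members, lists and tests were chosen with earlier results of these data known. Named besides the members were list genes that passed, or the one with the smallest p where none did, and the 3 genes most like Gfap and Aqp4. A gene that this rule names is not reported here. Kcnj16, Slc12a2, Lcn2, Stat3 and Socs3 were named after their values were seen.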

Additional observations from a re-analysis of the deposited data

How the results depend on the processing

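The replicate numbers of the titles did not pair the libraries: same-numbered libraries of compared groups had correlations of their deviations from -0.06 to 0.07, and between 2 and 5 of 6 libraries per comparison correlated best with their own number. With the replicate block the members called were unchanged in all 5 comparisons, Slc4a4 in BDL against sham moved to 0.00 and Gfap in all ligated groups to -0.02, and the gene called in AAV-VEGFC against AAV-GFP was lost (0; Slc39a12, adjusted p = 0.06). Of the list genes, the block also ended Srgn in AAV-GFP against BDL (0.0733), 5 of 8 calls in AAV-VEGFC against BDL (Glul, Slc4a7, Ptgs2, Srgn and Fbln5, 0.0552 to 0.0834) and 2 of 11 in all ligated groups against sham (Lrrc8c and Clcf1, 0.0582 to 0.0641). Of members, BDL against sham called 1 with DESeq2, limma voom, the 6 libraries alone and without the 3 libraries that stood apart. AAV-GFP against BDL called 1 with DESeq2, 4 with limma voom, 1 in the 6 libraries alone and 3 without the 3 libraries, and 0 to 3 with a library left out. AAV-VEGFC against AAV-GFP called 2 without the 3 libraries. AAV-VEGFC against BDL called 1 with limma voom and 3 without the 3 libraries, and 0 to 1 with a library left out. All ligated against sham called 7 with limma voom and without the 3 libraries, and 0 to 5 with a library left out. Over all genes, BDL against sham called 14 (23 at an adjusted p under 0.1, 108 with DESeq2, 347 with limma voom, 332 in 6 libraries, 209 without the 3 libraries, 12 to 74 with a library left out). AAV-GFP against BDL called 795 (1302, 1485, 4687, 2023, 3646, and 386 to 2945). AAV-VEGFC against AAV-GFP called 1 (10 with DESeq2, 0 in 6 libraries, 1193 without the 3 libraries, 0 to 22 with a library left out). AAV-VEGFC against BDL called 1276 (2353, 2347, 2488, 330, 3123, and 586 to 2284). All ligated against sham called 1287 (2157 at 0.1, 2194 with DESeq2, 4506 with limma voom, 3387 without the 3 libraries, 378 to 3199 with a library left out). AAV-GFP against BDL reached 2945 without AAV-VEGFC 1, which is in neither group, while all 12 libraries share the model that estimates the spread. The cause of the changes in calls was not tested. Osmr and Serpina3n rested on few reads.

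Members that changed sign, none of them called, did so as follows. With limma voom the log2 fold change was 0.00 for Slc4a4 in BDL against sham, -0.13 for Aqp4 and -0.14 for Aldh1l1 in AAV-GFP against BDL, -0.15 for S100b in AAV-VEGFC against AAV-GFP, -0.03 for Gja1 in AAV-VEGFC against BDL and -0.16 for Gfap in all ligated groups. Without the 3 libraries these were 0.03, -0.14, -0.17, -0.17, -0.05 and -0.16, and Vim in AAV-VEGFC against AAV-GFP was 0.01. Aldh1l1 in AAV-VEGFC against BDL was 0.01 with DESeq2 and with its size factors. With a library left out, BDL against sham ran from -0.08 to 0.03 for Aldh1l1 and -0.05 to 0.03 for Slc4a4, and AAV-GFP against BDL from -0.14 to 0.20 for Aqp4 and -0.17 to 0.14 for Aldh1l1. AAV-VEGFC against AAV-GFP ran from -0.28 to 0.06 for Vim, -0.22 to 0.25 for Osmr, -0.23 to 0.51 for S100b, -0.33 to 0.16 for Aldh1l1 and -0.29 to 0.07 for Slc4a4. AAV-VEGFC against BDL ran from -0.37 to 0.13 for Gfap, -0.29 to 0.18 for Aldh1l1 and -0.05 to 0.20 for Gja1, and all ligated groups from -0.11 to 0.06 for Gfap and -0.13 to 0.04 for Aldh1l1.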
